A study of Mus musculus with 8 samples.

Results

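Igf2, H19, Ins2, Igf2r, Slc22a2 and Slc22a3 are genes of the mouse imprinted domains around Igf2 on chromosome 7 and around Igf2r on chromosome 17. They were taken by symbol from the deposited allele counts, in which 5 of the 6 had a row, among 21352 genes in all. H19 had no row and is not analysed here. Low-input CUT&RUN, in which an antibody tethers a nuclease that cuts out the DNA it is bound to, had been run on sorted primordial germ cells (PGCs), from which eggs or sperm descend. One antibody recognised H3K27me3, a histone mark of Polycomb repression, and the other was IgG, a control without a target. Cells of several B6 x Cast embryos of 1 sex were pooled for each sort. Every embryo carried the Oct4-eGFP+/- reporter, females were Xist KO/+ and males Xist KO/Y, so every group here carried an Xist KO allele.

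The 5 libraries stand for 1 group each. H3K27me3 was profiled in E11.5 females and in E12.5 females. The IgG libraries came from E11.5 males, E12.5 females and E13.5 females. The 3 further H3K27me3 samples that the labels list are not analysed here. At E11.5 the H3K27me3 library is female and its IgG control male, so antibody and sex cannot be told apart in that comparison. With no replicate library, tests and 95% intervals below compare libraries, not conditions, and cover counting error only. The sources used here do not say which strain or which parent either allele stands for, and the alleles are called first and second as in the files.

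As background, genomic imprinting makes a gene's expression depend on the parent it came from. In most tissues Igf2, a fetal growth factor, is expressed from the paternal copy, and the neighbouring non-coding RNA gene H19 from the maternal copy. A control region between them is methylated on the paternal copy and binds the insulator protein CTCF on the maternal copy, and Ins2, an insulin gene, lies next to Igf2. Igf2r encodes the receptor that carries IGF2 to lysosomes for degradation, and is expressed from the maternal copy in most mouse tissues. The antisense RNA Airn, transcribed from the paternal copy of an Igf2r intron, silences Igf2r, and in placenta also the organic cation transporter genes Slc22a2 and Slc22a3, with Polycomb marks over the domain. PGCs erase DNA methylation imprints at about the stages sampled, so parental differences at these genes are of interest in them.

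Coordinates are from RefSeq on GRCm38.p6 (mm10). Igf2 lies at chr7:142650768-142666816 and Ins2 at chr7:142678656-142679726. Igf2r lies at chr17:12682406-12769706, Slc22a2 at chr17:12584189-12628489 and Slc22a3 at chr17:12419972-12507704. The counts refer to whole genes, with no split into exons, introns or UTRs. For the genes other than Ins2 the deposited length was at most 1.01 times the RefSeq span. The row of Ins2 had a length of 64726 bases, against 1071 in RefSeq, so it covers far more than the insulin gene. Igf2r overlaps Airn, which has no row, and the reads of genomic DNA cannot be assigned to one or the other.

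The bases just upstream of the start sites are shown because Polycomb marks in mammals are known to favour starts that are rich in CpG (a C followed by a G), and these genes differ in that respect. Each run is the 250 bases before a RefSeq start, 5′ to 3′ on the gene's strand, with every CG in capitals. The window of Igf2r is chr17:12769707-12769956 on the minus strand, that of Slc22a3 chr17:12507705-12507954 on the minus strand, and that of Igf2, for the outermost of its 4 starts, chr7:142666817-142667066 on the minus strand.
Igf2r: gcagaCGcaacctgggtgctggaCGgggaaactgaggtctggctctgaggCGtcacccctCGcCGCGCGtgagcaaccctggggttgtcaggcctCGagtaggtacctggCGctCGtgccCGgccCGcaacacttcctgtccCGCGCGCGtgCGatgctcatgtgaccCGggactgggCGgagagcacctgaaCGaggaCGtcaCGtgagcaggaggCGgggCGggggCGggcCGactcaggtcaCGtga
Slc22a3: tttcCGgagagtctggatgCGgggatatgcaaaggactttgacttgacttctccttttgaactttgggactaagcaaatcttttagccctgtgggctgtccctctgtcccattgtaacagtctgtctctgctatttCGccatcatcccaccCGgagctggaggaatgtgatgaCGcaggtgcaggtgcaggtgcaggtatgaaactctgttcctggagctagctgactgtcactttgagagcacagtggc
Igf2: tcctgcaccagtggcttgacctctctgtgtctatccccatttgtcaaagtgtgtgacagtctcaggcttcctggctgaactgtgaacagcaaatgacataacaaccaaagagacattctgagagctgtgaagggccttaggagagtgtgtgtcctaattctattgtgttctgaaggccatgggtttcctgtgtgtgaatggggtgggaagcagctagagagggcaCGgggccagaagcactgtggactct

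Igf2r had 27 CG in its window, and 8.56% of 32851 RefSeq promoter windows of the same length had at least as many. Slc22a3 had 5 and Slc22a2 had 6, against a median of 6 over all windows. The outermost Igf2 start had 1, while its 3 inner starts had 10, 22 and 6. A CG reads the same on both strands, and 92.1% of all windows hold at least 1. The counts below are for whole genes, so they give no value for a promoter by itself.

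Depth ranged from 1378513 (IgG male E11.5) to 5880641 (IgG E13.5) allele-assigned reads per library. The H3K27me3 libraries held the known Polycomb targets, with 9 of 9 tested more than 2-fold above IgG at E11.5 and 11 of 11 at E12.5, where 19.7% and 17.8% of all genes were. Markers of supporting and other somatic gonad cells were past 2-fold higher in 7 of 7 genes tested at both stages. Of the germ cell markers, none was past 2-fold higher and 4 of 5 and 7 of 9 tested were past 2-fold lower, where 31.1% and 31.8% of all genes were. Over IgG E13.5, 3 of 10 were lower at E12.5, where 27.2% of all genes were. These libraries hold no RNA, so the sorted cells could not be checked by expression. Chromosome 17 as a whole was skewed to the second allele in 3 libraries, at 56.8% in H3K27me3 E11.5, 57.3% in IgG male E11.5 and 57.1% in IgG E13.5. It stood at 52.8% and 53.2% in the H3K27me3 and IgG libraries of E12.5. Pooled over chromosomes 1 to 19, the shares of the 5 libraries were between 50.8% and 51.6%. Single autosomes other than 17 ran from 47.9% (chromosome 7 in IgG male E11.5) to 54.9% (H3K27me3 E11.5). Chromosome 7 stood at 51.3% and 51.4% in H3K27me3 E11.5 and E12.5, and at 50.3% and 50.8% in IgG E12.5 and E13.5. Chromosome 17 had the highest share of all autosomes in the 3 skewed libraries, and ranks 4 and 3 from the highest in H3K27me3 and IgG of E12.5. Allele shares of Igf2r and both transporters are therefore read beside those of IgG and of nearby genes.

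Igf2 had a higher read level in H3K27me3 than in IgG at both stages, Igf2r a lower one, and Slc22a3 a higher one. Levels are reads of both alleles per 1000000 allele-assigned reads of chromosomes 1 to 19. Beyond 2-fold, with at least 20 reads in both libraries together, 1 of the 5 genes (Igf2) was higher and 1 (Igf2r) lower at E11.5, where 19.7% of 15574 genes were higher and 31.1% lower. At E12.5, 2 genes (Igf2 and Slc22a3) were higher and 1 (Igf2r) lower, where 17.8% of 17132 genes were higher and 31.8% lower. The median autosomal gene had a ratio of 0.700 at E11.5 and 0.668 at E12.5, a shift of -0.52 and -0.58 on the log2 scale. Ratios with the median gene set to 1 are therefore given beside the main ones.

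Igf2, the growth factor gene, had a level of 44.6 in H3K27me3 E11.5 and 26.5 in H3K27me3 E12.5. In IgG it stood at 16.2 in E11.5 males, 11.2 at E12.5 and 8.59 at E13.5, on 22, 17 and 49 reads. Both H3K27me3 values lay above all 3 IgG values, a separation that was not counted over all genes. The ratio was 2.75 at E11.5 (95% interval 1.72 to 4.57) and 2.36 at E12.5 (1.42 to 4.18), above the ratio of 87.4% and 87.1% of autosomal genes, and 3.93 and 3.54 with the median gene set to 1. Against the deeper IgG library of E13.5 the ratios were 5.19 and 3.08, while H3K27me3 E12.5 over IgG of E11.5 males gave 1.63, short of 2-fold. The IgG libraries differed from each other at Igf2 too, with E13.5 at 0.530 times (0.314 to 0.920) the level of E11.5 males.

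**Figure D1:**
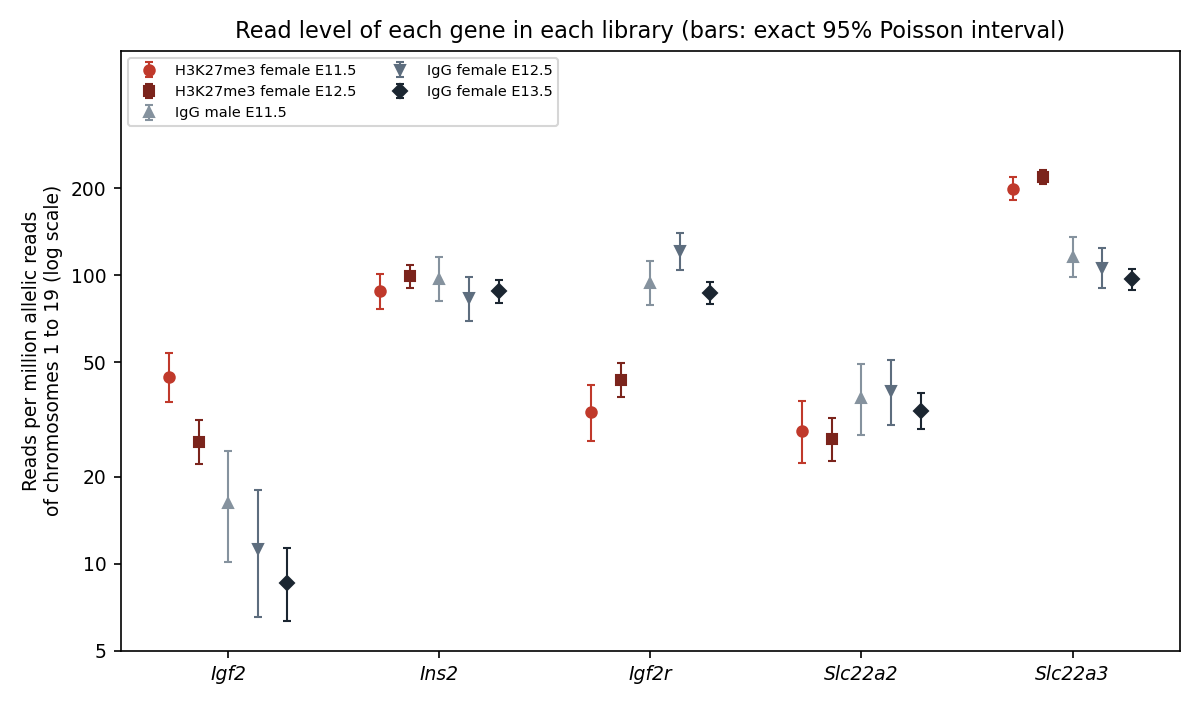
Read level of the 5 genes in each of the 5 libraries, in reads per 1000000 allele-assigned reads of chromosomes 1 to 19 on a log axis, with exact 95% Poisson intervals of counting error. Igf2 and Slc22a3 sit higher in both H3K27me3 libraries (red) than in the 3 IgG libraries (grey and black), Igf2r sits lower, and the intervals of Ins2 overlap across all libraries.

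Igf2r, the receptor gene, was the only one of the 5 that was past 2-fold lower. Its level was 33.5 in H3K27me3 E11.5 and 43.4 in H3K27me3 E12.5, and 94.3, 121 and 87.1 in IgG of E11.5 males, E12.5 and E13.5. The groups did not overlap, which was not counted over all genes. The ratio was 0.356 (0.265 to 0.474) at E11.5 and 0.358 (0.293 to 0.438) at E12.5, and 9.63% and 9.19% of autosomal genes had a lower one. With the median gene set to 1 in place of the total, the ratios became 0.508 and 0.536, still lower and no longer past 2-fold. The rank of Igf2r among autosomal genes depended on the control. For H3K27me3 E12.5, 24.2% of them had a lower ratio when the control was IgG of E11.5 males. With the E13.5 control it was 27.8%. For H3K27me3 E11.5 the values were 15.4% with the E13.5 control and 2.61% with that of E12.5.

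Slc22a3, which encodes a transporter of organic cations such as monoamines, had the highest level of the 5 in the H3K27me3 libraries. It stood at 199 at E11.5 and 219 at E12.5, on 470 and 1100 reads, and at 116, 106 and 96.8 in IgG of E11.5 males, E12.5 and E13.5. The groups again did not overlap, and this too was not counted over all genes. The ratio was 1.72 (1.44 to 2.08) at E11.5 and 2.06 (1.75 to 2.45) at E12.5, above 79.0% and 84.3% of autosomal genes. Setting the median gene to 1 raised both past 2-fold, to 2.47 and 3.09.

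Slc22a2, the transporter gene between Slc22a3 and Igf2r, differed less. Its level was 28.9 and 27.1 in H3K27me3 at E11.5 and E12.5, and 37.6, 39.6 and 33.8 in IgG in the order above. Both H3K27me3 values were below all IgG values, likewise not counted over all genes. The ratios were 0.768 (0.526 to 1.127) and 0.684 (0.501 to 0.943). These lay near the median gene, and the direction depended on the scaling, since the ratio of E12.5 was 1.03 with the median gene set to 1. The row of Ins2 had levels of 88.3 and 99.2 in H3K27me3 and 97.2, 83.1 and 88.0 in IgG, and the groups overlapped. Its ratios were 0.908 (0.726 to 1.14) and 1.19 (0.979 to 1.46), and above 1 at both stages (1.30 and 1.79) with the median gene set to 1.

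The choice of control changed which genes passed 2-fold. Over IgG E13.5, the deepest control, Igf2 and Slc22a3 were past 2-fold higher and Igf2r lower at both stages, that is 2 and 1 of the 5 genes, where 18% and 29.5% of all genes were higher and lower at E11.5, and 17.7% and 27.2% at E12.5. Over IgG E12.5, H3K27me3 E11.5 had Igf2 higher (3.97) and Igf2r lower (0.276), where 16.9% and 33.4% of genes were. H3K27me3 E12.5 over IgG of E11.5 males had only Igf2r past 2-fold (0.461), where 19.1% of genes were higher and 29.7% lower. Between IgG libraries none of the 5 genes was past 2-fold in any of the 3 pairs. In all genes 5.25% were higher and 7.29% lower in IgG E13.5 than in IgG E12.5, 3.64% and 1.93% in IgG E13.5 than in IgG of males, and 3.83% and 1.78% in IgG E12.5 than in IgG of males.

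Per kilobase of deposited length, the order of levels differed between antibodies. In H3K27me3 E11.5 these levels were 2.78 for Igf2, 2.25 for Slc22a3, 1.36 for Ins2, 0.651 for Slc22a2 and 0.384 for Igf2r. In H3K27me3 E12.5 Slc22a3 led with 2.47, followed by Igf2 at 1.65 and Ins2 at 1.53, and Igf2r was again last at 0.498. In IgG E13.5 Ins2 had 1.36, Slc22a3 1.09, Igf2r 0.998, Slc22a2 0.763 and Igf2 0.535. Igf2 was thus last in this control and the first or the next in H3K27me3, and in IgG of E11.5 males it stood at 1.01, above Slc22a2 at 0.847. At E11.5 the intervals of Igf2 and Slc22a3 per kilobase overlapped, so their order is not resolved there, nor is that of Igf2 and Ins2 or of Slc22a2 (0.611) and Igf2r at E12.5, or of Slc22a3 and Igf2r or of Slc22a2 and Igf2 in IgG E13.5. Only reads over a variant between the strains are counted, and the density of variants in each gene was not measured. The order of genes within a library can depend on that density.

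A comparison of genes within a library does not depend on how libraries are scaled. For 5 pairs, chosen after the levels were seen, the reads of one gene were divided by those of the other and the ratio in H3K27me3 was set over that in IgG. Each result is thus the quotient of the level ratios of both genes, and restates those ratios. How often other pairs of genes reach such values was not counted. Slc22a3 had 5.95 and 5.05 times the reads of Igf2r in H3K27me3 E11.5 and E12.5, and 1.23, 0.875 and 1.111 times in IgG of E11.5 males, E12.5 and E13.5. Relative to Igf2r, Slc22a3 was thus 4.85-fold (3.43 to 6.87) higher in H3K27me3 than in the E11.5 control and 5.77-fold (4.42 to 7.51) higher at E12.5. Both genes are about the same length and lie in the same domain. Relative to Slc22a2, Slc22a3 was 2.25-fold (1.46 to 3.43) and 3.01-fold (2.09 to 4.31) higher. Slc22a2 relative to Igf2r gave 2.16 (1.33 to 3.51) and 1.91 (1.31 to 2.80). On chromosome 7, Igf2 relative to the Ins2 row gave 3.03 (1.79 to 5.29) at E11.5 and 1.98 (1.14 to 3.63) at E12.5, and the latter interval reached 0.968 against IgG of E11.5 males. Igf2, the ligand, relative to Igf2r, its receptor, gave 7.73 (4.40 to 13.9) and 6.60 (3.79 to 12.1).

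Neighbouring genes place these values within each domain. Of 11 listed neighbours of Igf2r tested at each stage, none was past 2-fold higher, and 7 at E11.5 and 5 at E12.5 were past 2-fold lower, with median ratios of 0.448 and 0.540. Of all genes, 19.7% and 17.8% were past 2-fold higher and 31.1% and 31.8% lower at these stages. Map3k4, a kinase gene, was at 0.409 and 0.294, and Acat2, which encodes an enzyme of acetyl-CoA metabolism, at 0.412 and 0.346. Plg, the plasminogen gene directly beyond Slc22a3, was at 0.799 and 1.02. Within 600 kb of Igf2r, measured between the lower coordinates of genes, Slc22a3 had the highest ratio of the genes tested at both stages. The 12 listed neighbours of Igf2 were mixed, with 5 higher and 2 lower past 2-fold at E11.5 (median ratio 1.64) and 2 higher and 3 lower at E12.5 (0.719). The latter depended on the control, since over IgG E13.5 the counts at E12.5 were 4 and 2 and the median ratio 1.27. Of all genes, 17.7% were higher and 27.2% lower in that comparison. Ascl2, a transcription factor gene of the placenta, was at 18.4 (3.08 to 751) and 11.2 (1.88 to 453), on 1 read in each of these IgG libraries. Th, the tyrosine hydroxylase gene, was at 3.87 and 2.07, on a row 5.32 times as long as the RefSeq gene.

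**Figure D2:**
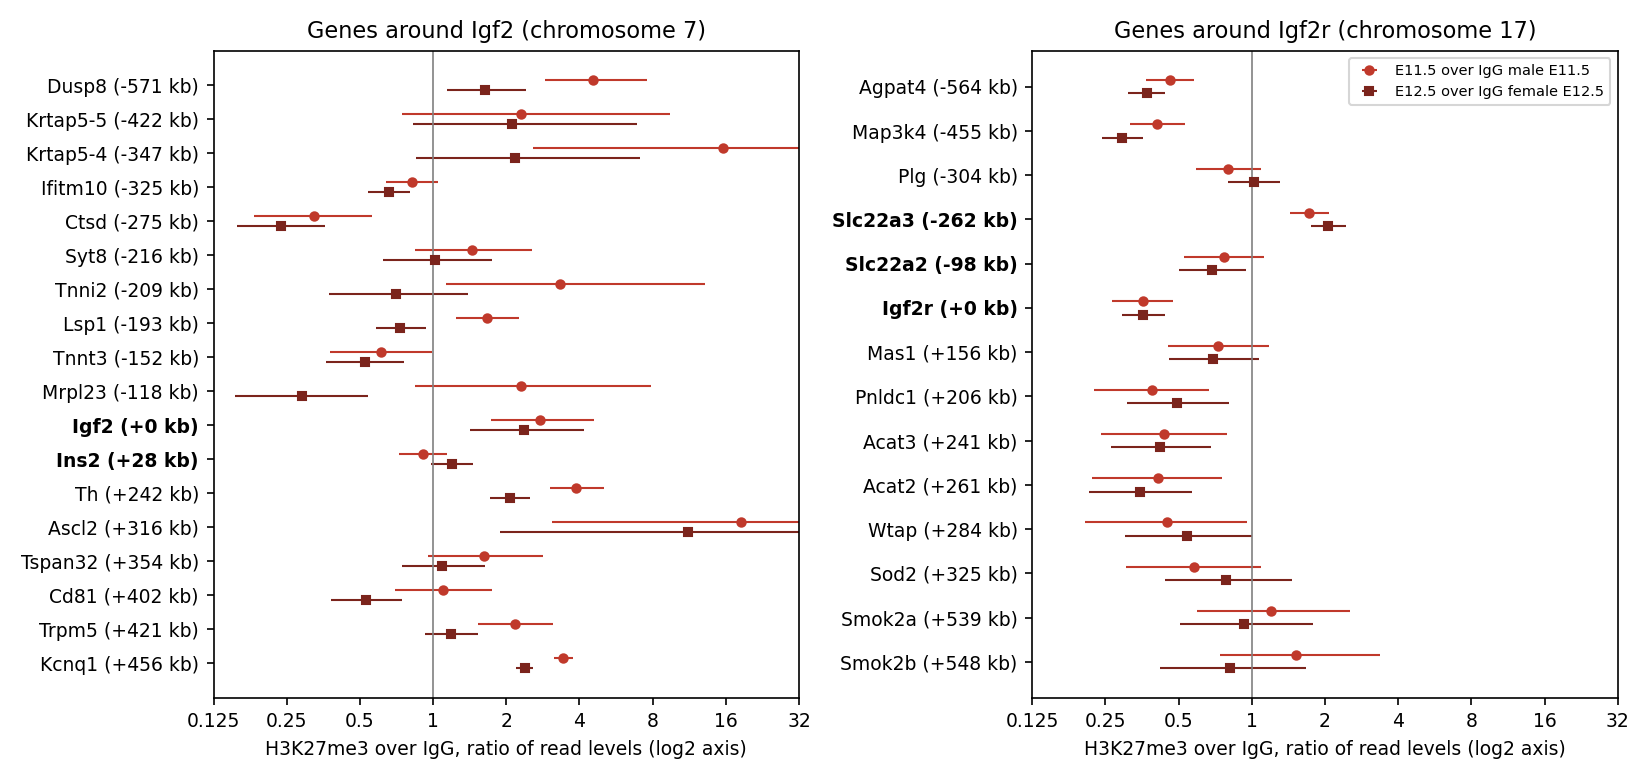
Ratio of read levels, H3K27me3 over IgG of the same stage, on a log2 axis for the reported genes within 600 kb of Igf2 (left) and of Igf2r (right) that had 20 reads or more at both stages, ordered by the distance between lower coordinates, with exact 95% intervals of counting error (those of Ascl2 and Krtap5-4 run past the axis). Slc22a3 stands to the right of its neighbours at 1.72 and 2.06, Igf2r to the left of 1 at 0.356 and 0.358 with Map3k4 and Acat2 lower still at E12.5 (0.294 and 0.346), and the Igf2 side holds genes on both sides of 1.

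Between the H3K27me3 libraries of E11.5 and E12.5, none of the 5 genes moved past 2-fold, where 1.62% of 17150 genes were higher and 1.21% lower. Igf2 came nearest, from 44.6 to 26.5, a ratio of 0.595 (0.457 to 0.775), and 3.46% of autosomal genes had a lower one. The intervals of its level did not overlap between the stages. Both alleles were lower, the first at 0.647 (0.434 to 0.971) and the second at 0.555 (0.388 to 0.797) times the E11.5 level. Igf2r was at 1.30 (0.997 to 1.70), Ins2 at 1.12 (0.954 to 1.33), Slc22a3 at 1.10 (0.985 to 1.23) and Slc22a2 at 0.939 (0.697 to 1.28), and each of these intervals held 1. The median autosomal gene was at 1.01. In IgG, Igf2 was also lower than in E11.5 males, at 0.692 (0.345 to 1.37) in E12.5 and 0.530 (0.314 to 0.920) in E13.5. The 12 listed neighbours of Igf2 had a median ratio of 0.785 between the H3K27me3 libraries, with 0 past 2-fold. Whether the lower level of Igf2 differs from that in IgG or at its neighbours was not tested.

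Reads of both alleles were found at all 5 genes in every library. The second-allele share is the percent of a gene's allele-assigned reads that lie on the second allele. Against the pooled share of chromosomes 1 to 19 of the same library, an exact two-sided binomial test with Benjamini-Hochberg adjustment called 1 of the 5 genes, Slc22a3, in H3K27me3 E11.5, where 13.7% of genes were called, and in IgG E13.5, where 7.95% were. No member was called in H3K27me3 E12.5, IgG male E11.5 or IgG E12.5, where 19.6%, 6.28% and 3.43% of genes were. At an unadjusted p under 0.05, Slc22a3 in H3K27me3 E12.5 and in IgG male E11.5, Igf2 in IgG male E11.5 and Igf2r in IgG E13.5 were the further ones.

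Slc22a3 had 196 first-allele and 274 second-allele reads in H3K27me3 E11.5, a share of 58.3% (53.7 to 62.8). The share was 54.0% in H3K27me3 E12.5, 60.5% in IgG male E11.5, 48.4% in IgG E12.5 and 59.2% in IgG E13.5. It was high in the same 3 libraries in which chromosome 17 was skewed. The adjusted p of 0.0295 in H3K27me3 E11.5 and 0.00333 in IgG E13.5 (binomial test) became 0.852 and 0.760 when the expected share was that of chromosome 17. Slc22a2 had shares of 61.8%, 53.7%, 56.9%, 45.0% and 57.5% in the order H3K27me3 E11.5, H3K27me3 E12.5, IgG male E11.5, IgG E12.5 and IgG E13.5. Its 3 highest shares too were in the libraries with the skew, on 51 to 193 reads.

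Igf2r did not move with its chromosome in all libraries. Its shares were 55.7% (44.1 to 66.9), 46.3% (39.6 to 53.2), 53.9% (44.9 to 62.8), 47.8% (40.4 to 55.3) and 46.5% (42.0 to 51.0) in that order. Other genes within 5 Mb of each gene give a local expectation, which for Igf2r was 56.5%, 53.4%, 57.5%, 52.7% and 56.2%. In IgG E13.5 the share of Igf2r was -9.70 points from it (adjusted p = 0.000486, exact binomial test with Benjamini-Hochberg adjustment), where 6.61% of genes were called. In the other 4 libraries the difference lay between -7.07 and -0.822 points with no call (2.45% of genes were called in IgG male E11.5 and 2.47% in IgG E12.5). The Igf2r and Airn transcription units share this row, and the lower share of IgG E13.5 is in a control library without the H3K27me3 antibody. The size of that difference depends on the window. In IgG E13.5 the pooled share was 57.2% in the 5 Mb below the lower coordinate of Igf2r. It was 52.4% in the 5 Mb above it, which includes Igf2r. Against the share of its library Igf2r was not called in IgG E13.5 (adjusted p = 0.245, exact binomial test).

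**Figure D3:**
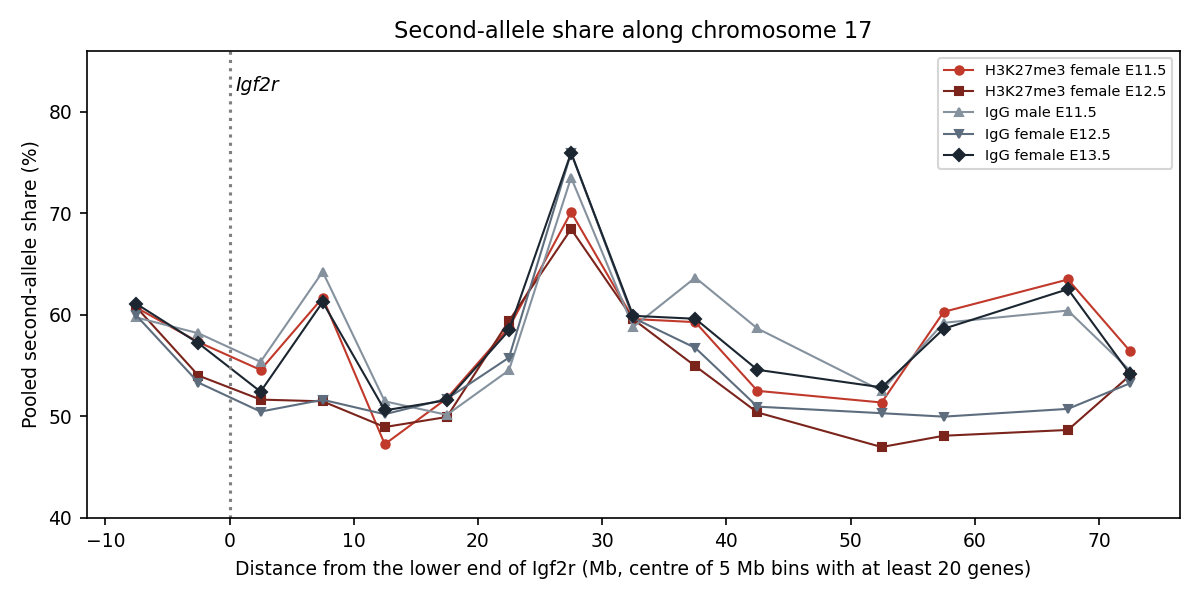
Pooled second-allele share along chromosome 17 in 5 Mb bins with at least 20 genes, plotted at the bin centre as distance from the lower coordinate of Igf2r (dotted line), 1 line per library. In the bin from 5 to 10 Mb, H3K27me3 E11.5, IgG male E11.5 and IgG E13.5 lie at 61.7%, 64.2% and 61.2% and both E12.5 libraries at 51.5% and 51.6%, and these groups lie apart again in the bins from 55 to 60 Mb and from 65 to 70 Mb and closer together from 70 to 75 Mb, while the bin from 25 to 30 Mb is between 68.4% and 76.0% in all 5.

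Igf2 had shares of 57.1% (47.1 to 66.8) in H3K27me3 E11.5 and 53.4% (44.5 to 62.1) in H3K27me3 E12.5, on 105 and 133 reads. In IgG they were 27.3% (10.7 to 50.2) on 22 reads, 64.7% (38.3 to 85.8) on 17 and 42.9% (28.8 to 57.8) on 49. The control shares thus spread over more than the H3K27me3 values, at depths that leave wide intervals. The row of Ins2 was at 47.1%, 50.2%, 53.8%, 54.0% and 51.2%. Other genes within 5 Mb of it stood at 61.5% and 60.7% in H3K27me3 and at 50.8%, 52.1% and 52.3% in IgG. The row was -14.4 points from them at E11.5 (adjusted p = 0.000562) and -10.5 points at E12.5 (adjusted p = 2.92e-05, exact binomial test with Benjamini-Hochberg adjustment), where 12.8% and 19.1% of genes were called, and it was not called in IgG. Kcnq1, a gene of the neighbouring imprinted domain with 3204 and 5568 reads and a share of 65.3% at both stages, carried part of that local share, and without it the differences were -13.5 and -9.42 points. Median shares over genes of that window were 54.1% and 54.5%, nearer to the values of Ins2 and Igf2.

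**Figure D4:**
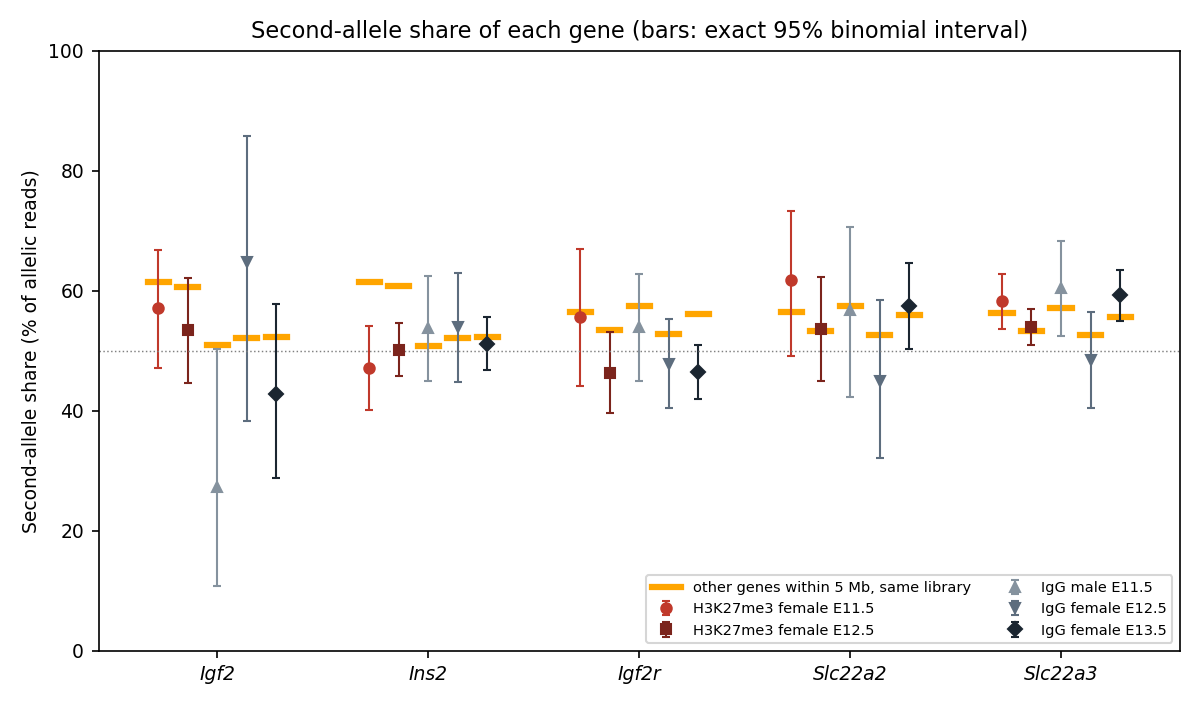
Second-allele share of the 5 genes in each library in percent, with exact 95% binomial intervals. Short horizontal bars give the pooled share of the other genes within 5 Mb in the same library, and the dotted line marks 50%. The H3K27me3 shares of Ins2 (47.1% and 50.2%) lie below their local bars (61.5% and 60.7%), Igf2r in IgG E13.5 (46.5%) lies below its bar (56.2%), and Igf2 in IgG has the widest intervals.

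Set against IgG of the same stage, none of the 5 genes had a share in H3K27me3 that passed Fisher's exact test after Benjamini-Hochberg adjustment, where 4.96% of 13828 genes did at E11.5 and 4.14% of 15038 at E12.5. Igf2 was 29.9 points (6.91 to 46.6) above IgG of E11.5 males, with p = 0.0176 before adjustment and 0.222 after it in the same Fisher's exact test, and was the only member under 0.05 unadjusted. Chromosome 7 as a whole was also lower in IgG of E11.5 males (47.9%) than in H3K27me3 E11.5 (51.3%). At E12.5 Igf2 was -11.3 points (-31.2 to 13.499) from IgG. The change of this difference between stages had p = 0.0341 in Zelen's exact test of equal odds ratios and 0.604 after Benjamini-Hochberg adjustment, where 1.63% of genes were called. Igf2r differed from IgG by 1.79 points (-12.0 to 15.3) at E11.5 and -1.50 (-11.2 to 8.21) at E12.5. Slc22a3 differed by -2.21 (-10.8 to 6.74) and 5.55 (-2.66 to 13.7), Slc22a2 by 4.90 (-12.4 to 22.2) and 8.68 (-6.37 to 23.1), and Ins2 by -6.67 (-17.3 to 4.19) and -3.77 (-13.3 to 5.96). No member passed against any other control either, where the share of genes called was 3.96% (IgG E12.5), 5.94% (IgG E13.5) and 6.99% (the 3 IgG libraries summed) for H3K27me3 E11.5, and 5.81% (IgG of males), 8.23% (IgG E13.5) and 9.45% (summed) for H3K27me3 E12.5. Before adjustment these controls gave p under 0.05 for Igf2 in H3K27me3 E12.5 against IgG of males, and for Slc22a3 in H3K27me3 E11.5 against IgG E12.5 and in H3K27me3 E12.5 against IgG E13.5. Between IgG libraries none passed, where 0.338% (E13.5 against E12.5), 2.36% (E13.5 against males) and 1.97% (E12.5 against males) of genes did. Before adjustment, Slc22a3 had p under 0.05 between IgG E12.5 and each of the other IgG libraries, and Igf2 between IgG E12.5 and males.

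None of the 11 tested neighbours of Igf2r was called in share against IgG of the same stage by Fisher's exact test with Benjamini-Hochberg adjustment, with median differences of 0.267 points at E11.5 and 4.60 at E12.5. Against IgG E13.5, H3K27me3 E12.5 had a lower share at 2 of the 11, Agpat4 (adjusted p = 0.00666) and Qk (adjusted p = 0.0224, Fisher's exact test), where 8.23% of genes were called and no member was. Of the neighbours of Igf2, Th was called at E11.5, as 1 of 9 tested, at 63.6% against 41.7% in IgG of males (adjusted p = 0.0118, Fisher's exact test). At E12.5 Th was at 61.0% against 53.5% (adjusted p = 0.562, Fisher's exact test), and none of 11 was called. Of all genes, 4.96% were called at E11.5 and 4.14% at E12.5 against these controls. Against the 44.2% of IgG E13.5, Th was called at E12.5 too, as 1 of 11 (adjusted p = 4.93e-05, Fisher's exact test).

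Between the H3K27me3 libraries of both stages no share passed Fisher's exact test with Benjamini-Hochberg adjustment either, or had an unadjusted p under 0.05, where 0.554% of genes passed. The differences, E12.5 minus E11.5, were -9.37 points (-21.7 to 3.44) for Igf2r, -8.09 (-21.6 to 6.33) for Slc22a2, -4.30 (-9.57 to 1.08) for Slc22a3, -3.76 (-16.1 to 8.87) for Igf2 and 3.09 (-4.98 to 11.1) for Ins2. All 3 genes on chromosome 17 had the lower share at E12.5, as the whole chromosome did.

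Allele by allele, the lower level of Igf2r and the higher level of Slc22a3 were seen on both. Igf2r was at 0.342 (0.218 to 0.528) of IgG on the first allele and 0.367 (0.246 to 0.544) on the second at E11.5, and at 0.368 (0.278 to 0.487) and 0.346 (0.258 to 0.467) at E12.5. Slc22a3 was at 1.82 (1.36 to 2.46) and 1.66 (1.31 to 2.12) at E11.5, and at 1.84 (1.46 to 2.35) and 2.30 (1.81 to 2.95) at E12.5. No single-allele interval of these genes held 1. For Igf2 the alleles were less even, with 1.62 (0.898 to 3.07) on the first and 5.76 (2.50 to 16.3) on the second at E11.5, from 16 and 6 control reads. At E12.5 they were 3.12 (1.35 to 8.83) and 1.95 (1.03 to 4.08), from 6 and 11 control reads, so the allele with the larger ratio was not the same at both stages. The H3K27me3 reads of the first and second allele were 45 and 60 at E11.5 and 62 and 71 at E12.5, and the controls leaned to opposite alleles.

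**Figure D5:**
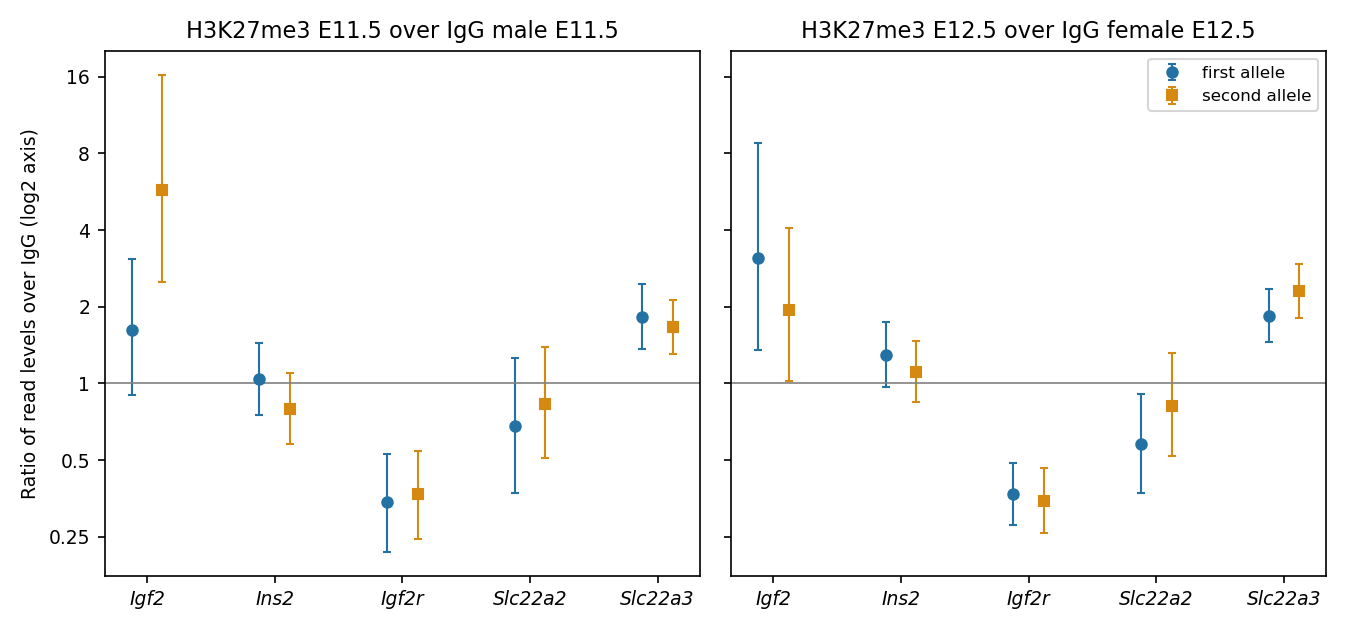
Ratio of read levels, H3K27me3 over IgG of the same stage, for each allele of the 5 genes on a log2 axis, at E11.5 (left) and E12.5 (right), with exact 95% intervals of counting error. Both alleles of Igf2r lie between 0.342 and 0.368 and both alleles of Slc22a3 between 1.66 and 2.30, while the intervals of Igf2 are wide.

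The wider IGF and insulin pathway was mixed. Of 27 listed genes, all with a row, 24 could be tested for level, with medians of 1.09 at E11.5 and 1.08 at E12.5. Past 2-fold, 7 were higher and 3 lower at E11.5, where 19.7% and 31.1% of all genes were. At E12.5, 5 were higher and 5 lower, where 17.8% and 31.8% of all genes were. The higher ones at E12.5 were the IGF binding protein genes Igfbp6 (5.05), Igfbp4 (3.62) and Igfbp5 (2.60), Pappa (4.60), whose protease frees IGF from binding proteins, and the adaptor gene Irs4 (4.50). All 5 were past 2-fold at E11.5 as well. Irs4 lies on the X, so its ratio at E11.5 sets a female library against a male one, on 6 control reads. The lower ones were Igfbp3 (0.302, on 10 reads in each library), another IGF binding protein gene, Igfals (0.498), whose product holds IGF in a circulating complex, and the genes of the IGF2 mRNA binding proteins, Igf2bp1 (0.496), Igf2bp2 (0.447) and Igf2bp3 (0.463). Over IgG E13.5, 7 were higher and 2 lower at E12.5, where 17.7% and 27.2% of all genes were. Of the lower ones named, Igfbp3 (0.264) and Igf2bp3 (0.471) stayed past 2-fold. The signalling receptor genes Igf1r and Insr were at 0.758 and 0.576, and the ligand gene Igf1 at 1.09. Beside these, Igf2 stood at 2.36 and Igf2r at 0.358, and differences between genes of the list were not tested. In share, Grb10, an imprinted adaptor gene, was at 78.0% against 54.0% in IgG at E11.5 (adjusted p = 2.55e-05) and at 71.3% against 56.8% at E12.5 (adjusted p = 0.0300, Fisher's exact test). Pappa was at 57.8% against 43.3% at E12.5 (adjusted p = 0.000105, Fisher's exact test), and no other listed gene passed at that stage. Of all genes, 4.96% were called in share at E11.5 and 4.14% at E12.5.

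Among 19 tested paralogues of the transporter genes, 3 were past 2-fold higher and 4 lower at each stage, with medians of 0.893 and 0.755. Of all genes, 19.7% and 17.8% were higher and 31.1% and 31.8% lower at E11.5 and E12.5. At E12.5 the higher paralogues were Slc22a17 (2.64), Slc22a6 (2.37) and Slc22a19 (2.25), which lie outside the Igf2r domain. The ratio of Slc22a3 thus had like values elsewhere in its family, as among all genes. Slc22a18, an imprinted gene of the Kcnq1 domain, was the only paralogue called in share at E12.5, at 69.8% against 34.1% in IgG E12.5 (adjusted p = 5.41e-06, Fisher's exact test). In that comparison 4.14% of all genes were called. Against the 46.5% of IgG E13.5 it was called too (adjusted p = 0.000264, Fisher's exact test). At E11.5 it was at 70.8% against 54.8% in IgG of males, with no call (adjusted p = 0.468, Fisher's exact test).

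Likeness to other genes was taken over the 5 libraries among 8113 genes with at least 30 reads in each, as the root-mean-square difference in log2(level + 1) after centring each gene. Nearest to Igf2r were Ubac2 (0.0391), Dhdds (0.0505) and Ddx31 (0.0576), and nearest to Slc22a3 were Trim36 (0.0560), Map3k7cl (0.0625) and Tectb (0.0633). In share the root-mean-square differences from Igf2r were 1.21 points for Mettl25, 1.28 for Asic5 and 1.37 for Zc3h3. Igf2 was below the read minimum, with 17 reads in IgG E12.5. With 5 libraries these are descriptions of likeness only.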

How the data were processed

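The deposited files list whole-number counts of reads for the first and the second allele of each gene, and the authors' fraction of second-allele reads, which equals the second count over both. Per the submitters' processing notes the build was mm10 and the tools, here in alphabetical order, were Bowtie2 2.4.2, cutadapt 4.1, deepTools 3.5.1, FastQC 0.11.9, featureCounts, GATK, MACS2 2.2.7.1, MultiQC 1.13, SAMtools 1.11 and Trim Galore 0.6.6. How each was used, how duplicates were handled and how reads were assigned to an allele is not given in the sources used here. Only reads over a variant between the strains are counted, and any PCR duplicates left would make the intervals too narrow.

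Gene spans came from RefSeq for 21083 genes by symbol and 83 by synonym, and 99 genes on the Y or at several positions were left out. Shares needed 10 reads and level ratios 20 in both libraries together. Binomial (against the library's pooled share of chromosomes 1 to 19), Fisher and Zelen exact tests, two-sided, were adjusted by Benjamini-Hochberg over all autosomal and X genes tested, with a threshold of 0.05, in Python 3.11.15 with SciPy 1.17.1. Intervals are exact (Clopper-Pearson for shares, Poisson for levels, conditional for ratios) or, for differences of shares, Newcombe's. Code was tested on simulated data. All 5 genes were named with all values. At most 6 genes a list were named, by the smallest adjusted p in share or the largest ratio past 2-fold at E12.5. The lower genes of the IGF list, the domain neighbours and the receptor genes were picked after their values were seen. Some genes of these lists, and results that rest on them, are not reported here. The members and lists were chosen with earlier results of these data known. Alternatives were the control library, the expected share, the scaling, the read minimum and the fold.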

Additional observations from a re-analysis of the deposited data

How the results depend on the processing

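No paired analysis was possible because each group had 1 library with a file, and for the same reason no replicate could be left out. No result changed direction among those called. Share calls depended on the expected share. Slc22a3 lost its call in H3K27me3 E11.5 against the chromosome's own share (1.49 points) and against genes within 5 Mb (1.94), and in IgG E13.5 likewise (2.16 and 3.57). Calls gained were Ins2 in H3K27me3 E11.5 (-14.4 against genes within 5 Mb, -13.5 without Kcnq1) and E12.5 (-10.5 and -9.42), and Igf2r in IgG E13.5 (-10.6 against its chromosome, -9.70 against genes within 5 Mb). The number of the 5 genes called became 0 in H3K27me3 E11.5 against the chromosome. It became 1 in H3K27me3 E12.5 against genes within 5 Mb, where 19.1% of all genes were called. Against the chromosome's own share, the calls among all genes were not counted. Share differences between libraries made 0 calls under every control and read minimum run.

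With the median gene ratio set to 1, level ratios at E11.5 became 1.30 (Ins2), 0.508 (Igf2r) and 2.47 (Slc22a3), and at E12.5 1.79 (Ins2), 0.536 (Igf2r), 1.03 (Slc22a2) and 3.09 (Slc22a3), so that 2 genes were past 2-fold higher at E11.5 and 0 lower at either stage. The share of all genes past 2-fold under this scaling was not counted. With IgG E13.5 as control, Igf2 at E11.5 was at 5.19, with 2 genes higher, and Igf2r at E12.5 at 0.499. With IgG of E11.5 males, Igf2r at E12.5 was at 0.461 and 0 genes were past 2-fold higher. Past 1.5-fold, 2 genes were higher at E11.5 and 1 was lower at E12.5 than at E11.5. The share of all genes past 1.5-fold was not counted. Igf2 relative to Igf2r moved with the control as well, from 3.55 (E12.5 over IgG of males) to 14.4 (E11.5 over IgG E12.5), and stayed above 1. A total without chromosome 17 changed none of these calls. The cause of these shifts was not tested, beyond what the scaling fixes by its construction. Igf2 rested on 17 to 49 control reads, which limits its shares and single-allele ratios most.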
